A study of Mus musculus with 2 samples.

Results

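The miR-15/16 family is represented on the mouse autosomes by 6 microRNA (miRNA) genes in 3 clusters, Mir15a with Mir16-1, Mir15b with Mir16-2, and Mir195a with Mir497. The members were taken by their GENCODE M21 gene names, and all 6 were found among the 2202 miRNA genes of the tables. The samples were adrenal glands from females of the hybrid strain B6CASTF1/J, 36 days old, with no treatment given in the labels. They formed 1 group of 2 microRNA-seq libraries, numbered as biological replicates 1 and 2. The labels number the females separately but give both the same donor identifier, so the spread between libraries may not be a spread between animals. There was no second condition, and the comparisons possible were between members and between the libraries.

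A miRNA represses messages that pair with its seed, bases 2 to 8 of the mature strand. Members of this family are known for restraining the cell cycle through messages for cyclins and checkpoint kinases, and for repressing the survival gene Bcl2. Mir15a and Mir16-1 were found as the miRNA genes of a region often deleted in human chronic lymphocytic leukaemia. In the mouse heart, miR-195 is known to promote the withdrawal of muscle cells from the cell cycle after birth, and in human adrenocortical tumours it is known to be lower in carcinoma than in adenoma.

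The mature 5p strands are shown because they define the family and decide which genes can be counted apart. They are RefSeq sequences of GRCm38.p6, written 5′ to 3′ with the seed in capitals, and all 6 members were matched.
miR-15a-5p: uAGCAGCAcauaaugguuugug
miR-15b-5p: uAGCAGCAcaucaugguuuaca
miR-497a-5p: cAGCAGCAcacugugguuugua
miR-16-5p: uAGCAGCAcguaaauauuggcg
miR-195a-5p: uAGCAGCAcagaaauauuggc
Behind the shared seed AGCAGCA the strands fall into 2 kinds. The miR-15a-5p strand has the same base as miR-15b-5p at 18 of 22 positions and as miR-497a-5p at 17 of 22, against 16 of 22 for miR-16-5p. The miR-195a-5p strand has the same base as miR-16-5p at 19 of 21 positions, against 12 of 21 for its own cluster partner miR-497a-5p. Each cluster therefore joins a strand nearer to miR-15a-5p with a strand nearer to miR-16-5p.

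The miR-16-5p strand is encoded by both Mir16-1 and Mir16-2. The hairpins are shown because the stretch they have in common, in capitals, is longer than the mature strand. They are from GENCODE M21 transcripts, in DNA letters.
Mir16-1: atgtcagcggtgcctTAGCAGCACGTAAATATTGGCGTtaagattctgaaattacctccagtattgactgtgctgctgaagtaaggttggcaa
Mir16-2: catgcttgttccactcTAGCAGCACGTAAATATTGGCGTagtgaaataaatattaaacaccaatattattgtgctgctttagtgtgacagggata
The common stretch has 23 bases and contains all 22 bases of the mature strand. A read of exactly the mature strand maps to both genes, and the deposited tables count reads that map to several places for no gene. The counts of Mir16-1 and Mir16-2 below can therefore hold only reads that are not contained in the common stretch, such as longer reads or those of the 3p arm, and the level of miR-16-5p itself cannot be read from them. Reads that mapped to several places were 28.5% of all reads in replicate 1, against 30.6% in replicate 2. The part of them that was miR-16-5p is not known. The 5p and 3p strands of the other 4 members were in no other annotated hairpin.

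The members lie on 3 chromosomes of mm10. Mir15a (ENSMUSG00000093007.1; chr14:61632027-61632110, minus strand) lies in an intron of the noncoding gene Dleu2. Mir16-1 (ENSMUSG00000092995.1; chr14:61631880-61631972, minus strand) lies 54 bases downstream and overlaps an annotated Dleu2 exon. Mir15b (ENSMUSG00000065580.2; chr3:69009772-69009835, plus strand) and Mir16-2 (ENSMUSG00000065606.1; chr3:69009902-69009996, plus strand) are 66 bases apart in an intron of Smc4, which encodes a condensin subunit. Mir497 (ENSMUSG00000105220.1; chr11:70234717-70234800, plus strand) and Mir195a (ENSMUSG00000065411.2; chr11:70235042-70235135, plus strand) are 241 bases apart, and no M21 gene other than miRNA genes contains them. Mir497b is annotated on the opposite strand across the whole of Mir497.

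Levels are given as CPM, the reads on a gene's own strand for each 1000000 such reads over all miRNA genes, which numbered 5397603 in replicate 1 and 3029977 in replicate 2. All 6 members were detected in both libraries, with between 763 and 34396 counts. A gene with no count could have up to 0.556 CPM in replicate 1, against 0.990 CPM in replicate 2. Ranges in brackets are 95% Wilson intervals, and intervals and floors cover counting error only. The tissue label was set against miRNAs of neuroendocrine cells, such as the chromaffin cells of the medulla. All 4 genes on that list had counts in both libraries, led by Mir375 with 28922 CPM in replicate 1, against 22246 CPM in replicate 2. Mir7b went the other way, with 2569 CPM in replicate 1, against 3010 CPM in replicate 2. Mir7-1 had 146 CPM in replicate 1, against 115 CPM in replicate 2, and Mir7-2 had 31.7 CPM, against 24.8 CPM. The 5 white-cell genes and the hepatocyte gene Mir122, described below, had counts in both libraries too. Having counts therefore does not by itself bear out the tissue label. No miRNA list for the steroid-producing cortex was used.

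Together the 6 members held 1.41% (1.40 to 1.42%) of the miRNA counts in replicate 1, against 0.384% (0.377 to 0.391%) in replicate 2, or 0.895% ± 0.723 (SD, n = 2). Each of the 6 was higher in replicate 1. The libraries differed so much that the SD of the family total was nearly as large as its mean.

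Mir195a, whose mature strand is the near relative of miR-16 found in no other annotated hairpin, had the highest mean of the family. It had 6372 CPM (6306 to 6440) in replicate 1, against 959 CPM (925 to 995) in replicate 2, or 3666 ± 3828 CPM (SD, n = 2). Its rank among all 2202 genes was 31 in replicate 1 and 72 in replicate 2. Its partner Mir497 had 778 CPM (755 to 802) in replicate 1, against 366 CPM (345 to 389) in replicate 2. By uniquely mapped reads, Mir195a thus led the family in replicate 1 but not in replicate 2.

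Mir15a had 3613 CPM (3562 to 3664) in replicate 1, against 1058 CPM (1022 to 1095) in replicate 2, or 2335 ± 1807 CPM (SD, n = 2), and was the highest member in replicate 2. Its partner Mir16-1 had 1343 CPM (1313 to 1375) in replicate 1, against 704 CPM (675 to 735) in replicate 2. Mir15a was above Mir16-1 in both libraries, but only part of the reads of Mir16-1 can be counted.

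Mir15b had 1563 CPM (1530 to 1597) in replicate 1, against 498 CPM (474 to 524) in replicate 2, or 1031 ± 753 CPM (SD, n = 2). Its partner Mir16-2 was the lowest member, with 398 CPM (382 to 415) in replicate 1, against 252 CPM (235 to 270) in replicate 2. The Smc4 cluster had the lowest summed level of the 3 in both libraries, 1962 CPM in replicate 1, against 750 CPM in replicate 2. As for Mir16-1, only part of the reads of Mir16-2 can be counted.

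**Figure D1:**
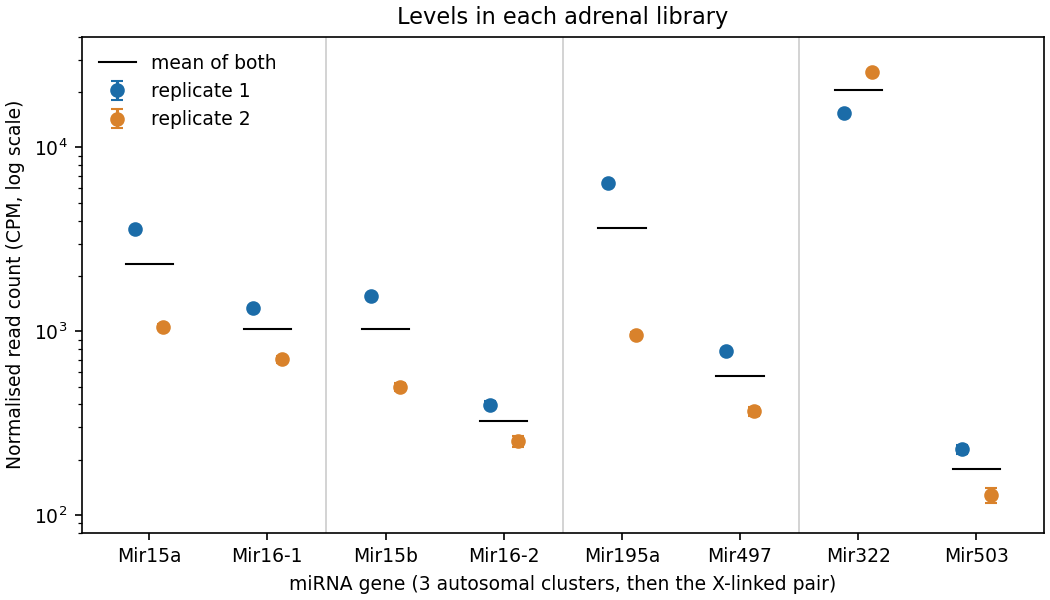
Normalised read count (CPM, log scale) of the 6 members and of the X-linked genes Mir322 and Mir503 in each library. Points are libraries with 95% Wilson intervals, mostly smaller than the point, and bars are means of both libraries; replicate 1 is higher for all 6 members and for Mir503, and lower for Mir322.

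By geometric mean the order was Mir195a, Mir15a, Mir16-1, Mir15b, Mir497 and Mir16-2. The pooled spread between the libraries, a coefficient of variation of 41.6% over the 434 genes with at least 10 counts, sets a limit of 2.26-fold for telling a pair of genes apart. None of the 5 steps between neighbours in the order was past that limit; the widest, Mir15a over Mir16-1, was 2.01-fold. Of all 15 pairs of members, 8 were past it, and 13 kept their order from library to library. The pairs that changed order were Mir195a with Mir15a and Mir16-1 with Mir15b. These are orders of read counts, and the yield of library preparation can differ between sequences.

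The 2 libraries were compared by the ratio of replicate 1 over replicate 2, scaled by TMM (a trimmed mean of ratios) and tested for each gene with an exact two-sided binomial test, adjusted over all 434 genes by the Benjamini-Hochberg method. The test compares these libraries against counting error and says nothing of a condition. All 6 members were called higher in replicate 1. Over all genes 30.2% were called higher in replicate 1, against 28.3% higher in replicate 2, that is 131 and 123 genes, or 58.5% in either direction. With total counts in place of TMM these were 189 and 83 genes, since that scaling moved the median log2 ratio of all genes to 0.37, against 0.08 with TMM. The share called also depended on the count minimum, and every member had at least 763 counts in each library. Under TMM, 228 of the 284 genes with at least 100 counts were called, 116 toward replicate 1 and 112 toward replicate 2. Calls were therefore more common among well-counted genes than the 58.5% over all genes shows.

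Mir195a had the largest ratio of the members, 5.39-fold (log2 ratio 2.43), the 13th largest in size of the 434. Mir15a followed with 2.77-fold (log2 1.47) and Mir15b with 2.54-fold (log2 1.35). Mir497 with 1.72-fold, Mir16-1 with 1.55-fold and Mir16-2 with 1.28-fold were under 2-fold. The adjusted p of Mir16-2 was the highest of the 6 (5.63e-09, exact binomial test). The median log2 ratio of the members was 1.07, beside 0.08 for all genes tested, and 3 of 6 members were at least 2-fold higher in replicate 1, beside 16.4% of all genes.

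The pooled spread gives a wider error than counting. With it, 95% of ratios between 2 libraries would lie within 3.16-fold, and Mir195a was the member outside that range. Taken as the error of the test, it left 0 of 6 members called at the adjusted threshold, and 0 of 434 genes (0%), by edgeR's exact negative binomial test and likewise by its likelihood ratio test. At an unadjusted p under 0.05 the exact test called 24 genes (5.53%) and the likelihood ratio test 34 (7.83%), and Mir195a was the member among them in both. Its adjusted p was 0.396 in the exact test. The differences of the members between the libraries were therefore larger than counting error. The pooled spread was estimated from the differences between these same 2 libraries, so a lack of calls is largely set by its construction. The tests with that error therefore cannot decide whether the members differ beyond a spread between libraries.

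**Figure D2:**
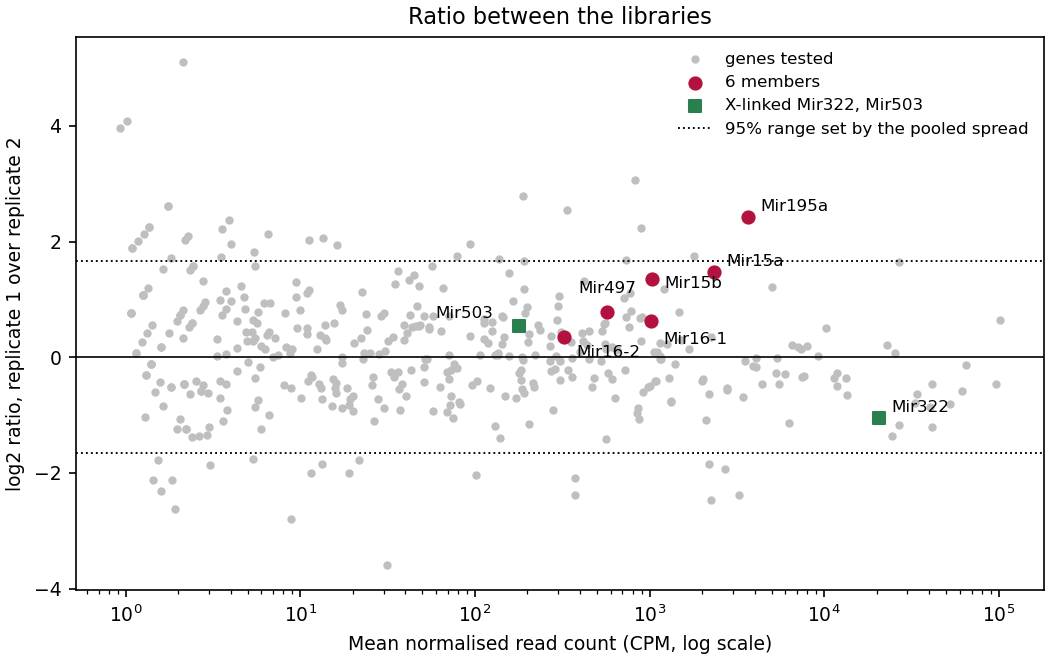
The log2 ratio of replicate 1 over replicate 2, scaled by TMM, against mean CPM (log scale) for the 434 genes tested. All 6 members lie above 0, and Mir195a at 2.43 is the member outside the dotted 95% range that the pooled spread sets.

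Partners in a cluster lie close together on the same strand, and the ratio between them does not depend on the scaling of the libraries. In each cluster the more abundant partner held a larger share in replicate 1. Mir195a held 89.1% (88.8 to 89.4%) of its cluster's counts in replicate 1, against 72.4% (71.0 to 73.7%) in replicate 2. Mir15b held 79.7% (78.9 to 80.5%) in replicate 1, against 66.4% (64.5 to 68.3%) in replicate 2. Mir15a held 72.9% (72.4 to 73.4%) in replicate 1, against 60.0% (58.7 to 61.3%) in replicate 2. The intervals, which cover counting error only, did not overlap between the libraries in any of the 3 clusters. Overlap was not counted for other neighbouring genes, so this is not shown to be particular to these clusters.

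The leading partner carries the miR-15 kind of strand in the clusters of Dleu2 and Smc4 and the miR-16 kind in the cluster of Mir195a. The clusters where the miR-16 kind came second are those whose miR-16-5p reads map to more than 1 place. The level of those reads could not be measured, so the order within these clusters is an order of uniquely mapped reads only.

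The clusters also held different parts of the family total. Mir195a and Mir497 held 50.8% (50.5 to 51.2%) of the members' counts in replicate 1, against 34.5% (33.7 to 35.4%) in replicate 2. Mir15a and Mir16-1 held 35.2% (34.9 to 35.6%) in replicate 1, against 45.9% (45.0 to 46.8%) in replicate 2. Mir15b and Mir16-2 held 13.9% (13.7 to 14.2%) in replicate 1, against 19.5% (18.8 to 20.3%) in replicate 2. The cluster in first place by uniquely mapped reads therefore changed between the libraries. These shares leave out miR-16-5p reads that map to both Mir16-1 and Mir16-2. The clusters of Dleu2 and Smc4 are thus counted only in part, and their place against Mir195a and Mir497 is not settled.

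The log2 ratios of the partners differed by 1.65 for Mir195a and Mir497, by 0.99 for Mir15b and Mir16-2 and by 0.84 for Mir15a and Mir16-1. Over 98 pairs of miRNA genes next to each other within 10 kb on the same strand, each with at least 100 counts, the median difference was 0.72 and the quartiles were 0.30 and 1.20. Ranked from the smallest, the 3 pairs of members were at 89, 64 and 57 of 98. All 3 were above the median, and the pair of Mir195a was also above the upper quartile.

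**Figure D3:**
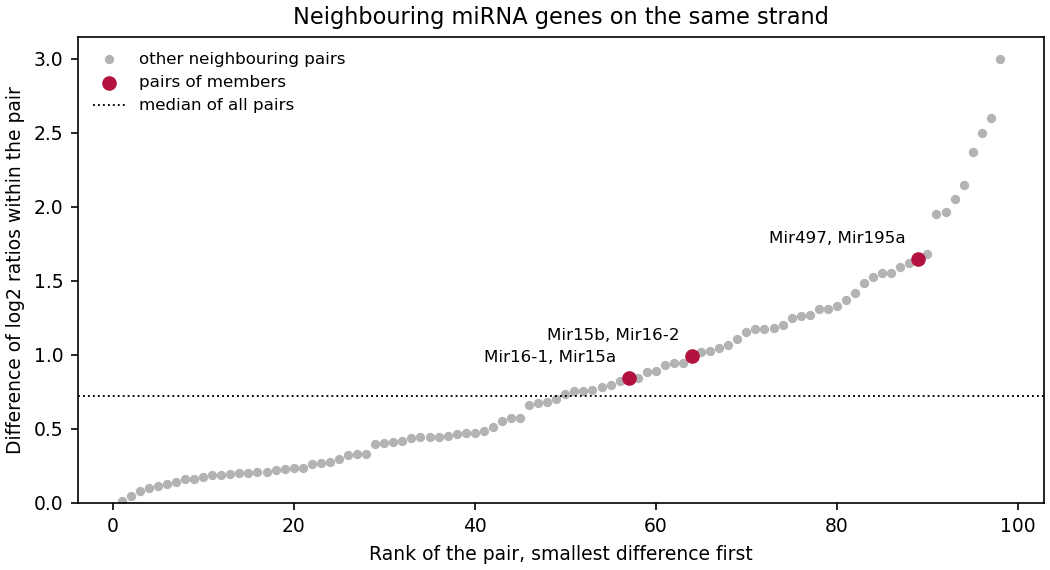
Difference of the log2 ratios (replicate 1 over replicate 2) within 98 neighbouring pairs of miRNA genes, by rank. The 3 pairs of members lie above the median of 0.72, with Mir497 and Mir195a highest at 1.65.

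Strand changed what was seen of Mir497. It had 4199 counts in replicate 1 and 1110 in replicate 2 on its own strand, and 0 in both when strand was ignored, because such reads are ambiguous with Mir497b. The same 4199 and 1110 reads appear as antisense counts of Mir497b, which had 0 sense counts in both libraries. The other 5 members had identical counts with and without strand and 0 antisense counts.

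In RefSeq 11 of 1738 mature strands carry the seed AGCAGCA, and 5 of them belong to genes outside the 6 members. Their sequences are shown for the X-linked Mir322 and for Mir195b, with Mir503, the neighbour of Mir322 whose seed differs in its last base.
miR-322-5p: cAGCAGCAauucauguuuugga
miR-195b: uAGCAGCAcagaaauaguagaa
miR-503-5p: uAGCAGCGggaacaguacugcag
Mir322, the mouse counterpart of human miR-424, had 15323 CPM (15220 to 15427) in replicate 1, against 25855 CPM (25677 to 26034) in replicate 2, and was called higher in replicate 2 by 2.08-fold. Mir503 had 228 CPM (216 to 241) in replicate 1, against 128 CPM (116 to 141) in replicate 2, and was called higher in replicate 1 by 1.45-fold (exact binomial test, adjusted p = 2.04e-10). Mir195b and the other 3 carriers, Mir6342, Mir6353 and Mir6419, had 0 counts in both libraries.

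Of the counts of the 6 members and Mir322, the members held 47.9% (47.6 to 48.1%) in replicate 1, against 12.9% (12.7 to 13.1%) in replicate 2. The sum of these 7 genes was 2.94% of the miRNA counts in replicate 1, against 2.97% in replicate 2. The sum was close in both libraries while its make-up was not. With 2 libraries this is a description of these glands, and the sum leaves out miR-16-5p reads. A gene's counts can also hold reads of its 3p strand, and the 3p strands of these genes do not carry the seed. The part of the sum from strands with the seed is therefore not known.

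**Figure D4:**
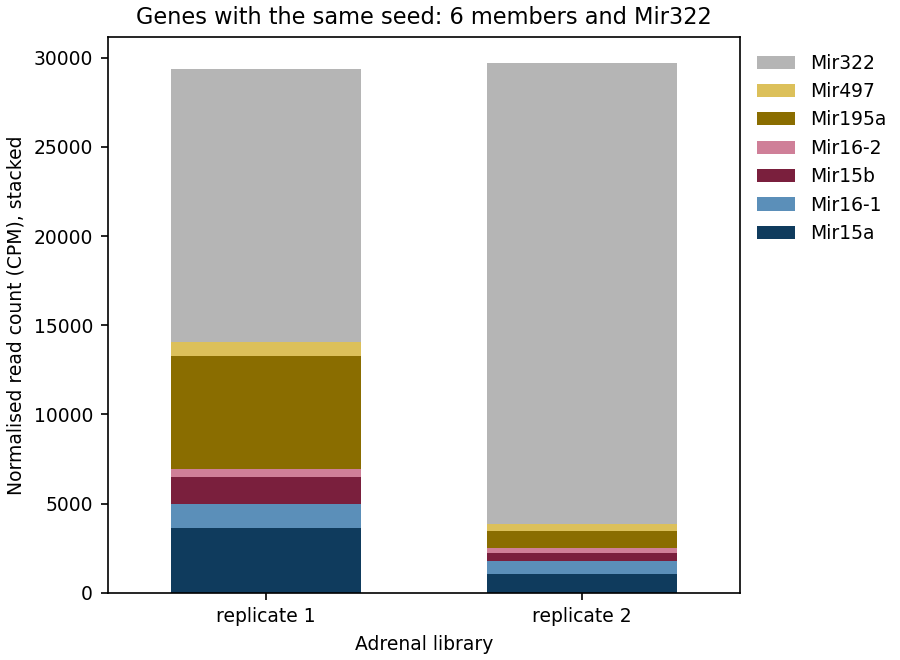
Stacked CPM of the genes with the seed AGCAGCA that had counts, in each library. The 6 members make up 47.9% of the column of replicate 1 and 12.9% of that of replicate 2, and Mir322 makes up the rest.

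Mir107, Mir103-1 and Mir103-2, hosted by genes for pantothenate kinases, carry a seed displaced by a base from that of the family. Mir107 had 1550 CPM in replicate 1, against 2677 CPM in replicate 2 and was called higher in replicate 2 by 2.13-fold. The miR-103-3p strand is in both Mir103 genes, so their uniquely mapped reads do not give its level.

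Other miRNAs of the cell cycle are given beside the 30.2% of all genes called higher in replicate 1 and the 28.3% called higher in replicate 2. Of 14 genes in the cluster of Mir17 and its relatives, the clusters of Mir106a and of Mir106b, known for promoting proliferation, 13 were tested, with 4 called higher in replicate 1, 6 called higher in replicate 2 and a median log2 ratio of 0.01. The highest of them were Mir93 (2956 CPM in replicate 1, against 3874 CPM in replicate 2), Mir17 (2528 CPM in replicate 1 and 3027 CPM in replicate 2), Mir20a (1121 CPM in replicate 1 and 1535 CPM in replicate 2) and Mir92-1 (1063 CPM in replicate 1 and 496 CPM in replicate 2). Of 6 genes of the miR-34 and miR-449 family, linked to p53 and cell-cycle arrest, 4 were tested, with 2 called in each direction and a median of -0.15. Mir34c had 1123 CPM in replicate 1, against 3278 CPM in replicate 2, while Mir34a had 980 CPM in replicate 1, against 552 CPM in replicate 2. Mir221 and Mir222, which target messages of cyclin-dependent kinase inhibitors, were both called higher in replicate 2, by 2.10-fold and 1.59-fold. No test of the difference between these lists and the members was made.

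Among the 278 other genes with at least 100 counts, those nearest to each member over the 2 libraries were found by Euclidean distance of log2(CPM + 1). Mir423 was nearest to Mir195a (distance 1.22) and to Mir15a (0.67), with 2913 CPM in replicate 1, against 699 CPM in replicate 2. Mir484 was nearest to Mir16-1 (0.27), Mir615 to Mir15b (0.40), Mir188 to Mir16-2 (0.11) and Mir451a, a red-cell miRNA, to Mir497 (0.14). The second nearest were Mir125a for Mir195a, Mir320 for Mir15a, Mir181c for Mir16-1, Mir484 for Mir15b, Mir181b-2 for Mir16-2 and Mir672 for Mir497. Of the 6 members, Mir195a had the largest distance to its nearest gene.

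Markers of several cell types also differed between the libraries, in a table where 58.5% of all genes were called. The red-cell genes, 3 of 3 called higher in replicate 1, summed to 1210 CPM in replicate 1, against 576 CPM in replicate 2. The hepatocyte gene Mir122 had 1503 CPM in replicate 1, against 146 CPM in replicate 2. The kidney and gut genes, 3 of 4 called higher in replicate 1, summed to 136 CPM in replicate 1, against 57.4 CPM in replicate 2. The 5 white-cell genes, all called higher in replicate 2, summed to 1928 CPM in replicate 1, against 2617 CPM in replicate 2.

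The sums of other marker lists rested on a leading gene. Of the endothelial pair, Mir126a had 133209 CPM in replicate 1, against 69285 CPM in replicate 2. Mir126b had 5.37 CPM in replicate 1, against 4.62 CPM in replicate 2, and was not called. Its counts, 29 in replicate 1 and 14 in replicate 2, equalled the antisense counts of Mir126a. They could not be told apart from antisense reads of Mir126a, so Mir126b was not a separate marker here. The 6 smooth muscle and fibroblast genes summed to 31789 CPM in replicate 1, against 59526 CPM in replicate 2, mostly from Mir143 with 28989 CPM in replicate 1, against 53980 CPM in replicate 2. On that list 3 genes were called higher in replicate 2, while Mir214 was called higher in replicate 1 with 1528 CPM, against 264 CPM in replicate 2, Mir199a-2 was not called, and Mir199a-1 was at 0. The 7 epithelial genes summed to 873 CPM in replicate 1, against 3729 CPM in replicate 2, of which Mir203 had 822 CPM in replicate 1, against 3691 CPM in replicate 2. On that list 2 genes were called higher in replicate 2, and Mir200b was called higher in replicate 1 with 14.3 CPM, against 4.62 CPM in replicate 2. The 8 striated muscle genes, with Mir1a-1 and Mir133a-2 at 0, summed to 491 CPM in replicate 1, against 544 CPM in replicate 2, and 3 were called higher in replicate 2. The part of these markers in the members' differences was not tested, and in whole glands fewer cells of a type and less RNA per cell cannot be told apart.

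The base composition of the hairpins was the other measure that moved with the ratios. Across the 284 genes with at least 100 counts, which are not independent replicates, the log2 ratio followed hairpin GC content with a Spearman's rho of 0.35 (Pearson's r 0.31). The members ran from 36.8% GC for Mir16-2 and 40.6% for Mir15b through 44.1% for Mir16-1, 45.2% for Mir15a and 54.3% for Mir195a to 61.9% for Mir497, beside a median of 50.0% over those genes. With a linear trend on GC removed, all 6 members were called higher in replicate 1, with log2 ratios from 0.53 for Mir497 to 2.36 for Mir195a. The removal lowered the ratios of these members, which had the highest GC, and raised the others, as from 0.36 to 0.73 for Mir16-2. Over all genes 253 were called, against 254 without the removal, and whether these were the same genes was not counted. The part of GC content in the members' differences was not tested.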

How the data were processed

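Mature and other small RNA reads of 2 adrenal libraries were counted by the authors, and the files deposited are raw counts for each miRNA gene, 3 columns with no header. These were taken as unstranded, sense and antisense counts, and the sense column was used. Per the file headers of the deposited notes, the assembly is mm10 and the annotation GENCODE M21; no aligner, counter or trimming is named by the sources used here. The labels give total RNA and a size range under 30 as library properties.

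The 4 summary entries entered neither library sizes nor tests: unmapped reads (26.0% in replicate 1 and 22.3% in replicate 2), reads mapped to several places (28.5% and 30.6%), reads outside miRNA genes (6.88% and 6.86%) and ambiguous reads (0). Replicate 1 held 13973580 reads and replicate 2 held 7530945, so low genes were measured less precisely in replicate 2. All 2202 gene identifiers matched M21. Ratios used TMM effective library sizes from edgeR 4.0.16 (R 4.3.3), a prior of 0.5 counts, a minimum of 10 counts over both libraries and a threshold of 0.05 on the adjusted p. Binomial tests used scipy 1.17.1, and adjustment and intervals statsmodels 0.14.6. Levels are CPM, and a count of 0 was taken to allow up to 3 counts. The pooled spread is the common dispersion of an intercept-only fit in edgeR.

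A simulation of this comparison used counting noise alone and known changes. The test called in the right direction 41 of 50 genes raised 2-fold, 46 of 52 raised 4-fold, 36 of 44 lowered 2-fold and 45 of 46 lowered 4-fold. It also called 3 of 233 unchanged genes. The real libraries spread more widely, with a pooled coefficient of variation of 41.6%, so these rates hold for counting noise only.

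The members, the gene lists and the tests were chosen with earlier results of these data known. Genes named are the members, genes with the same seed or listed as relatives, the 2 nearest genes to each member, and up to 4 genes of each cell-cycle list by mean CPM. The cell type markers named, such as Mir375, Mir122 or Mir214, are outside this rule and were chosen after their values were seen. Alternatives were total counts, DESeq2 1.42.0 size factors, removal of the GC trend, thinning of the deeper library, other minimums and priors, counts without strand, all reads as denominator, the most abundant gene left out and each library left out. The likelihood ratio test, the totals and medians without Mir16-1 and Mir16-2 and the denominator without the most abundant gene were chosen after seeing the data.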

Additional observations from a re-analysis of the deposited data

How the results depend on the processing

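The direction of each member's ratio, higher in replicate 1, held under all alternatives that gave a value, and no ratio reversed; the lowest was a log2 ratio of 0.29 for Mir16-2 with DESeq2 size factors and the highest 2.73 for Mir195a with total counts. With the pooled spread as error, 0 members and 0 genes were called by edgeR's exact test and 0 and 0 by the likelihood ratio test, as the report gives; the wider error is the construction of that alternative. The count of called genes otherwise lay between 228 of 284 tested (minimum of 100 counts) and 272 of 434 (total counts), against 254 of 434. With no count minimum it was 248 of 769, so the share called depended on the minimum. The median member ratio lay between 0.99 and 1.37 over the other scalings, the GC correction, thinning and the table without the most abundant gene and was 1.41 without Mir16-1 and Mir16-2. Without strand Mir497 gave no ratio and Mir195a held 100% of its cluster's counts, since reads of Mir497 are then ambiguous; 5 of 5 members were called.

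Leaving out a library gave a family share of 0.384 to 1.41% of the miRNA counts. It gave shares of the members' counts of 35.2 to 45.9% for Mir15a with Mir16-1, 13.9 to 19.5% for Mir15b with Mir16-2 and 34.5 to 50.8% for Mir195a with Mir497. The shares within clusters were 60.0 to 72.9% for Mir15a, 66.4 to 79.7% for Mir15b and 72.4 to 89.1% for Mir195a. The family share was 0.349% of all reads, 1.07% without strand, 0.760% without Mir16-1 and Mir16-2 and 1.02% without the most abundant gene in the denominator. No paired analysis was possible because there is 1 group. With n = 2, the libraries give no test of the spread between animals.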
